A study of Mus musculus with 12 samples.

Results

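The response of 10 genes of inflammatory signalling was followed through an RNA sequencing experiment on mpkCCDc11 cells, an immortalised clonal line of mouse kidney collecting duct epithelium. They are the chemokine genes Cxcl5, Cxcl1, Cxcl16 and Ccl20, the complement gene C3, the lipocalin gene Lcn2, the NF-kappaB feedback genes Nfkbia, Tnfaip3 and Birc3, and the adhesion gene Icam1. They were picked by symbol, 10 of 25208 genes in the table, and each symbol matched 1 row. Earlier results of these data were known when they were picked, so their counts and medians beside all genes are descriptive only. The cells received Ctnnb1 siRNA, directed at the transcript of beta-catenin, or control siRNA. After 4 days on permeable supports and 24 h without serum or hormones they were given dDAVP (1 nM), which selectively activates the V2 receptor for vasopressin, or vehicle, for a further 24 h. The 4 groups were Ctnnb1-siRNA dDAVP, Ctnnb1-siRNA vehicle, Control-siRNA dDAVP and Control-siRNA vehicle, with 3 libraries each. All of them come from 1 cell line, the labels call the Ctnnb1-siRNA cells Ctnnb1 Knockdown and the control-siRNA cells WT, and no untransfected cells were analysed here. The labels do not state that the replicates were separate cultures, so each p-value measures the spread between these samples only, which may be technical.

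NF-kappaB is a family of transcription factors held in the cytoplasm by IkB proteins until a kinase complex marks the IkB for destruction. Chemokines, acute phase proteins and adhesion molecules are among its targets, and so are its own inhibitors, which close a feedback loop. In injured kidney the tubular epithelium is a known source of Lcn2 and C3, and CXC chemokines made by tubule cells attract neutrophils. Vasopressin acts on collecting duct cells through cAMP and protein kinase A.

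The libraries held 32997720 to 48935473 counted reads. The library of replicate 3 of the Ctnnb1-siRNA dDAVP group, was unlike its mates: the chi-square of its gene counts, divided by its degrees of freedom, was 41.4 and 66.8 against them and 5.27 to 24.3 in the other pairs of replicates, where counting error alone gives about 1. Mitochondrial ribosomal RNA took 1.52% of its reads, against 0.464% and 0.831% in its mates. Ctnnb1 averaged 334 CPM (a read count scaled to library size with TMM factors) in Ctnnb1-siRNA dDAVP cells and 791 CPM in Control-siRNA dDAVP cells, and 316 CPM in Ctnnb1-siRNA vehicle cells and 757 CPM in Control-siRNA vehicle cells (n = 3 each). The exact two-sided permutation test gave p = 0.1 for both, the smallest p that 3 against 3 values allow. Aqp2, the water channel gene induced by vasopressin, had 155 to 187 reads in Ctnnb1-siRNA dDAVP and 0 to 6 in Ctnnb1-siRNA vehicle libraries, and 189 to 302 in Control-siRNA dDAVP and 0 to 2 in Control-siRNA vehicle libraries. Of 10 principal cell markers, 6 had a mean of at least 1 CPM, led by Gata3 at 51.8 CPM and Avpr2, the V2 receptor gene, at 36.7 CPM, whereas Aqp3, Fxyd4, Scnn1b and Aqp4 lay between 0.989 and 0.101 CPM. Of the 11 leukocyte markers 7 were in the table. The pan-leukocyte gene Ptprc had a mean of 0.132 CPM, the granulocyte gene S100a8 0.00389 CPM and Itgam 0.00994 CPM, while Csf1r reached 24.2 CPM and Cd68 3.28 CPM. The summed leukocyte markers ranged from 26.2 to 30.3 CPM in Ctnnb1-siRNA dDAVP, 27.4 to 31.5 in Ctnnb1-siRNA vehicle, 24.9 to 27.3 in Control-siRNA dDAVP and 27.1 to 29.7 CPM in Control-siRNA vehicle libraries. In each of the 4 pairwise comparisons these leukocyte ranges overlapped. The sums came mostly from Csf1r, so they say little about the other leukocyte markers. Other marker sums moved with dDAVP. The 6 epithelial markers summed to 4115 to 4676 CPM in Ctnnb1-siRNA dDAVP and 3906 to 3966 CPM in Ctnnb1-siRNA vehicle libraries, and to 3993 to 4249 CPM in Control-siRNA dDAVP and 3662 to 3854 CPM in Control-siRNA vehicle libraries, so that the siRNA groups were also apart in vehicle. The proximal tubule markers, nearly all from Lrp2 at 81.5 CPM with Slc5a2 at 0.00579 CPM, summed to 71.6 to 75.7 CPM in Ctnnb1-siRNA dDAVP and 85.8 to 88.0 CPM in Ctnnb1-siRNA vehicle libraries, and to 71.0 to 82.2 CPM in Control-siRNA dDAVP and 82.4 to 96.4 CPM in Control-siRNA vehicle libraries. Their part in the results was not tested. In these bulk samples fewer cells making a transcript and less transcript per cell cannot be told apart.

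The 10 genes spanned about 4 orders of magnitude per transcript length. On the TPM scale, the authors' length-scaled level, Lcn2 stood highest at 1379 to 2031 TPM over the 12 libraries and ranked 68 among all genes by mean TPM. Lcn2 encodes a secreted protein that binds iron-loaded siderophores and is used as a marker of tubular injury. Nfkbia, the gene of IkB-alpha, followed at 144 to 173 TPM, and C3, the central protein of the complement cascade, at 63.6 to 159 TPM, with an overlap between these neighbours. Cxcl16, a membrane-bound chemokine that can be shed, held 40.7 to 62.2 TPM and met neither of its neighbours. Cxcl1 and Cxcl5, both neutrophil attractants that signal through Cxcr2, had 21.3 to 38.0 and 11.3 to 40.6 TPM and overlapped. Ccl20, which attracts Ccr6-bearing lymphocytes and dendritic cells, had 7.66 to 15.3 TPM and overlapped with Tnfaip3, a ubiquitin-editing enzyme that restrains NF-kappaB, at 5.70 to 8.07 TPM. Icam1, the endothelial and epithelial ligand of leukocyte integrins, had 1.10 to 1.87 TPM, and Birc3, a ubiquitin ligase of TNF receptor signalling, 0 to 0.20 TPM.

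**Figure D1:**
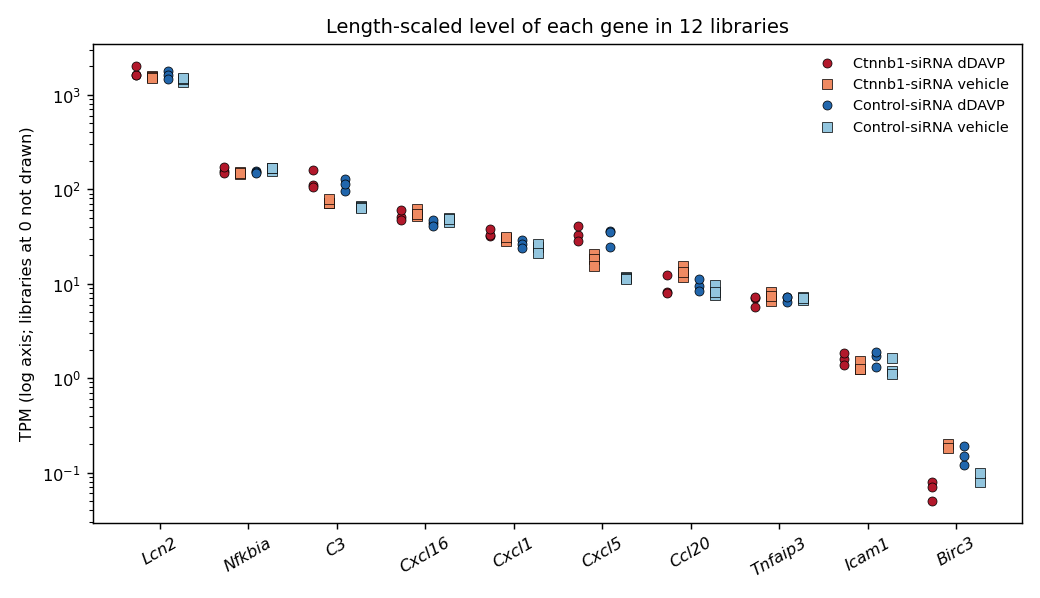
Level of each gene in TPM on a log axis, 1 point per library, with genes ordered by mean and groups by colour and shape; the 2 libraries with no Birc3 read are not drawn. Lcn2 lies between 1379 and 2031 TPM, and Birc3 does not exceed 0.20 TPM.

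Cxcl5 and Cxcl1 sit in 1 cluster of CXC chemokine genes on GRCm38 chromosome 5. In the RefSeq annotation Cxcl5 (gene ID 20311) runs from 90759298 to 90761625 and Cxcl1 (gene ID 14825) from 90891245 to 90893121, 129620 bases apart. Of the CXC chemokine genes looked up, those between them were weakly read. Ppbp had 53 to 119 reads per library, Cxcl15 0 to 10, Pf4 0 to 8 and Cxcl3 0 to 3. Cxcl2, on the far side of Cxcl1, had 107 to 296. Other genes in this stretch were not looked up. Reads of Cxcl1, Cxcl2 and Cxcl3, which are close paralogs, may be shared between them by the counting. C3 (gene ID 12266) lies on chromosome 17 at 57203967 to 57228136, Lcn2 (gene ID 16819) on chromosome 2 at 32384637 to 32387739, and Cxcl16 (gene ID 66102) on chromosome 11 at 70454389 to 70459984. Ccl20 (gene ID 20297) lies on chromosome 1 at 83116766 to 83119167, Nfkbia (gene ID 18035) on chromosome 12 at 55489409 to 55492647 and Tnfaip3 (gene ID 21929) on chromosome 10 at 19000910 to 19015410. Icam1 (gene ID 15894), at 21015940 to 21028814, and Birc3 (gene ID 11796), at 7847468 to 7873205, are both on chromosome 9.

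The first question was what V2 receptor stimulation did to these genes. Cxcl5 and C3 rose with dDAVP in cells given either siRNA, and most of the other genes were not called. With control siRNA 2 of the 10 genes were higher and 0 lower at an adjusted p under 0.05 in edgeR, where 2.83% of all 16508 tested genes were called. With Ctnnb1 siRNA 2 were higher and 0 lower, where 2.78% of all genes were called. DESeq2 called 3 of the 10 with control siRNA, beside 757 of all genes. With Ctnnb1 siRNA it called 3 as well, beside 728 of all genes. Averaged over both siRNAs 3 were higher and 0 lower, with Lcn2 as the addition, where 6.86% of all genes were called. The median log2 change of the 10 genes was 0.23 with control siRNA and 0.19 with Ctnnb1 siRNA, beside -0.00422 and -0.00493 for all tested genes. All 10 passed the filter on low counts, Birc3 through 3 Control-siRNA dDAVP and 2 Ctnnb1-siRNA vehicle libraries only.

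Cxcl5 moved most. It had 28.6, 31.3 and 20.3 CPM in Control-siRNA dDAVP libraries, against 9.81, 9.18 and 8.79 CPM in Control-siRNA vehicle libraries. Every dDAVP library lay above every vehicle library, and replicate 3 was the lowest of the dDAVP libraries. The rise was 2.88-fold (log2 1.52, SE 0.15, edgeR adjusted p = 2.65e-05, n = 3 each). With Ctnnb1 siRNA, Cxcl5 had 29.2, 26.3 and 33.5 CPM in dDAVP libraries and 17.1, 15.6 and 13.3 CPM in vehicle libraries, again apart. This rise was 1.94-fold (log2 0.95, SE 0.14, adjusted p = 0.00147). On the TPM scale the order of the neutrophil attractants depended on the treatment: Cxcl5 at 11.3 to 11.6 TPM lay below Cxcl1 at 21.3 to 26.0 TPM in Control-siRNA vehicle libraries, and the pair overlapped in Control-siRNA dDAVP libraries, with Cxcl5 at 24.6 to 35.7 and Cxcl1 at 23.9 to 29.0 TPM.

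C3 had 311, 258 and 290 CPM in Control-siRNA dDAVP libraries, against 170, 157 and 151 CPM in Control-siRNA vehicle libraries. The groups did not overlap, and the rise was 1.79-fold (log2 0.84, SE 0.11, adjusted p = 0.000468). With Ctnnb1 siRNA it had 287, 295 and 397 CPM in dDAVP libraries and 181, 188 and 195 CPM in vehicle libraries, a rise of 1.74-fold (log2 0.80, SE 0.11, adjusted p = 0.000724). The value of 397 CPM belongs to the library that stood apart. Without it the log2 change of C3 was 0.63 (adjusted p = 5.79e-05) and that of Cxcl5 0.86 (adjusted p = 0.00795).

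Lcn2 changed less, at a high level. It had 730, 740 and 624 CPM in Control-siRNA dDAVP libraries, against 598, 608 and 599 CPM in those given vehicle. With Ctnnb1 siRNA it had 736, 780 and 865 CPM in dDAVP libraries and 686, 678 and 673 CPM in vehicle libraries. All dDAVP libraries lay above the vehicle libraries with the same siRNA. The averaged dDAVP effect was called at 1.16-fold (log2 0.22, SE 0.047, adjusted p = 0.00842), while neither siRNA alone gave a call in edgeR (adjusted p = 0.115 with control siRNA and 0.0967 with Ctnnb1 siRNA). The averaged call was lost with limma on log2(TPM + 1), where the adjusted p was 0.133. The control-siRNA value was called without Control-siRNA dDAVP replicate 3 (adjusted p = 0.0258) or without Ctnnb1-siRNA dDAVP replicate 3 (adjusted p = 0.0297).

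**Figure D2:**
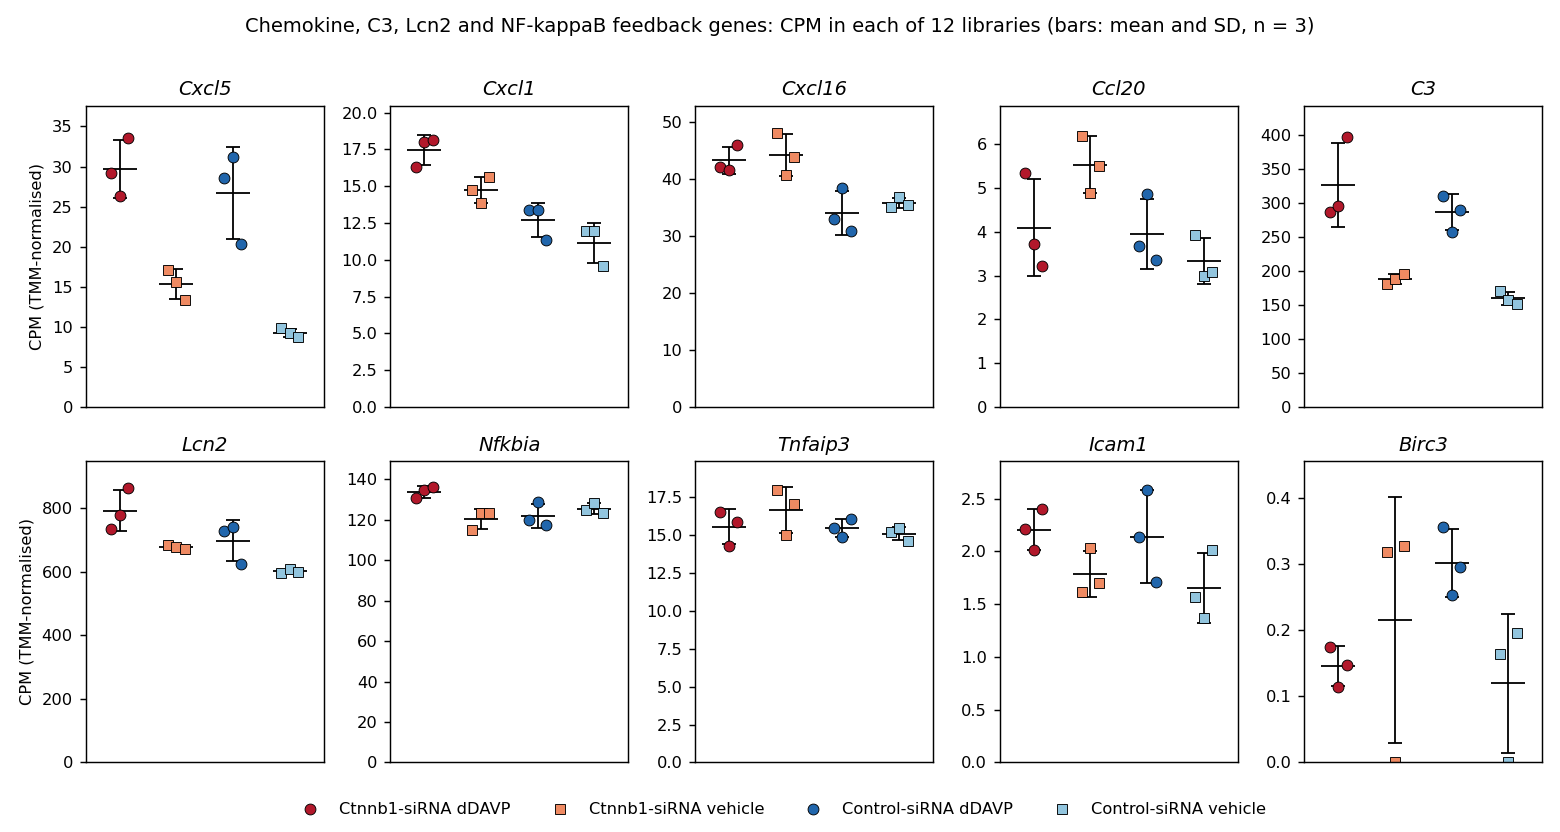
CPM of each gene in the 12 libraries, 1 panel per gene with its own linear axis from 0; points are libraries, the long bar is the mean and the whiskers the SD (n = 3). Cxcl5 and C3 lie higher in both dDAVP groups than in the vehicle group with the same siRNA, while Cxcl1 and Cxcl16 lie higher in both Ctnnb1-siRNA groups.

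The other chemokines did not pass the test for dDAVP. Cxcl1 had 16.3, 18.01 and 18.1 CPM in Ctnnb1-siRNA dDAVP and 14.7, 13.9 and 15.6 CPM in Ctnnb1-siRNA vehicle libraries, with a log2 difference of 0.25 (95% interval 0.04 to 0.46, adjusted p = 0.254). These Cxcl1 groups did not overlap. With control siRNA the Cxcl1 log2 difference was 0.19 (95% interval -0.03 to 0.40, adjusted p = 0.430). Averaged over both siRNAs it was 0.22 (95% interval 0.07 to 0.37, adjusted p = 0.0841), also without a call. Cxcl16 had log2 differences of -0.03 with Ctnnb1 siRNA (95% interval -0.20 to 0.14) and -0.07 with control siRNA (-0.25 to 0.10). Ccl20 had differences of opposite sign, log2 -0.43 with Ctnnb1 siRNA (95% interval -0.84 to -0.02, adjusted p = 0.323, and -0.28 without replicate 3 of the dDAVP group) and 0.24 with control siRNA (-0.18 to 0.66, adjusted p = 0.646). Neither was called. Leaving out single libraries moved the value with Ctnnb1 siRNA between -0.67 and -0.28 and that with control siRNA between 0.07 and 0.38. The Ccl20 values were spread: 5.34, 3.73 and 3.22 CPM in Ctnnb1-siRNA dDAVP and 6.20, 4.89 and 5.50 CPM in Ctnnb1-siRNA vehicle libraries.

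The feedback genes gave no dDAVP call. Nfkbia had 120, 129 and 117 CPM in Control-siRNA dDAVP and 125, 128 and 123 CPM in Control-siRNA vehicle libraries, a log2 difference of -0.04 (95% interval -0.15 to 0.07). In Ctnnb1-siRNA cells it had 131, 135 and 136 CPM with dDAVP and 115, 123 and 123 CPM with vehicle, values that did not overlap, at log2 0.15 (95% interval 0.05 to 0.26, adjusted p = 0.143). Tnfaip3 held 14.3 to 16.5 CPM in Ctnnb1-siRNA dDAVP, 14.99 to 17.95 in Ctnnb1-siRNA vehicle, 14.8 to 16.0 in Control-siRNA dDAVP and 14.6 to 15.4 CPM in Control-siRNA vehicle libraries, with dDAVP intervals of -0.28 to 0.08 and -0.14 to 0.21 on the log2 scale. Icam1 held 2.01 to 2.40 CPM in Ctnnb1-siRNA dDAVP and 1.62 to 2.03 in Ctnnb1-siRNA vehicle libraries, and 1.71 to 2.58 in Control-siRNA dDAVP and 1.37 to 2.02 CPM in Control-siRNA vehicle libraries. Its averaged dDAVP difference was log2 0.33 (95% interval 0.04 to 0.63, adjusted p = 0.199). Birc3 was near the limit of detection, with 8, 5 and 7 reads in Ctnnb1-siRNA dDAVP, 13, 0 and 14 in Ctnnb1-siRNA vehicle, 14, 10 and 14 in Control-siRNA dDAVP and 8, 0 and 9 reads in Control-siRNA vehicle libraries. The libraries without a read allow up to 0.0676 and 0.0895 CPM, by a floor of 3 counts that covers counting error only. No difference in Birc3 was detectable at this depth (adjusted p = 0.853 with Ctnnb1 siRNA and 0.546 with control siRNA).

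**Figure D3:**
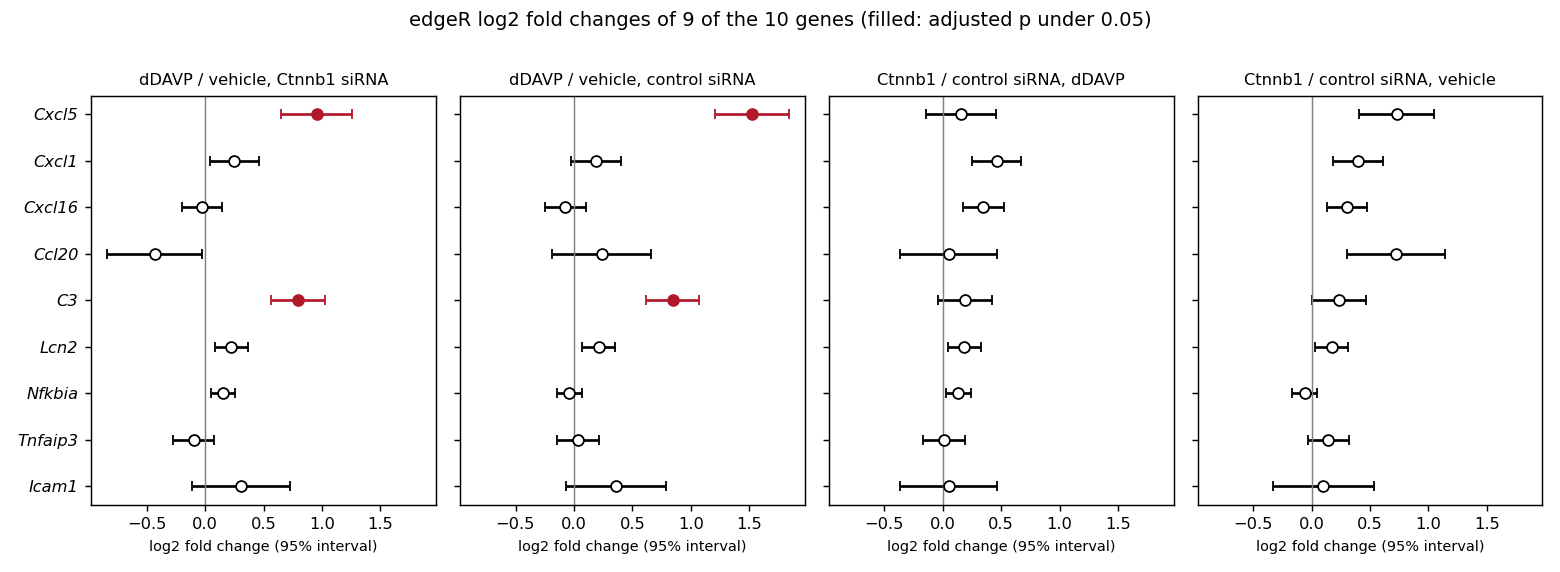
edgeR log2 fold change with its 95% interval for 9 of the 10 genes in the 4 pairwise comparisons, filled red where the adjusted p is under 0.05; Birc3 is left out for its low counts. The calls are Cxcl5 and C3 with dDAVP. With Ctnnb1 siRNA in vehicle all the genes drawn except Nfkbia lie to the right of 0, without a call.

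The second question was how cells given Ctnnb1 siRNA differed from those given control siRNA. Lower Ctnnb1 and other effects of that siRNA cannot be told apart in these groups. Cxcl1, Cxcl16 and Cxcl5 rose by small amounts in Ctnnb1-siRNA cells when both treatments were averaged. In the averaged siRNA effect 3 of the 10 genes were higher and 0 lower, where 1.85% of all genes were called. Within vehicle 0 of the 10 were called by edgeR, where 0.430% of all genes were called. At an unadjusted p under 0.05 the number was 6 of 10, beside 1336 of all genes. DESeq2 called 4 of the 10 (Cxcl5, Cxcl1, Cxcl16 and Ccl20), beside 177 of all genes, and an edgeR fit of only these 2 groups called 5, beside 225 of all genes. Within dDAVP 0 of the 10 were called by edgeR, where 0.267% of all genes were called, with 4 at an unadjusted p under 0.05, beside 1925 of all genes. DESeq2 called 2 of the 10 (Cxcl1 and Cxcl16), beside 237 of all genes. The median log2 difference of the 10 genes was 0.27 with vehicle and 0.15 with dDAVP, beside -0.00290 and 0.00108 for all tested genes.

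Cxcl1 rose 1.35-fold in the averaged siRNA effect (log2 0.43, SE 0.071, adjusted p = 0.00446). Its 3 Ctnnb1-siRNA dDAVP libraries, at 16.3, 18.01 and 18.1 CPM, lay above the Control-siRNA dDAVP libraries at 13.4, 13.4 and 11.4 CPM, and its Ctnnb1-siRNA vehicle libraries, at 14.7, 13.9 and 15.6 CPM, above the Control-siRNA vehicle libraries at 11.95, 11.96 and 9.59 CPM. The call was kept in each of the 18 alternatives. Cxcl16 rose 1.25-fold in the average (log2 0.33, SE 0.057, adjusted p = 0.00714). It had 42.2, 41.6 and 46.1 CPM in Ctnnb1-siRNA dDAVP and 33.0, 38.4 and 30.8 CPM in Control-siRNA dDAVP libraries, and 48.1, 40.7 and 43.9 CPM in Ctnnb1-siRNA vehicle and 35.1, 36.9 and 35.5 CPM in Control-siRNA vehicle libraries. The groups were apart in both treatments, and the averaged call was lost with limma on log2(TPM + 1), where the adjusted p was 0.0918.

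The averaged siRNA effect on Cxcl5 was called at log2 0.44 (SE 0.10, adjusted p = 0.0415). With vehicle Cxcl5 had 17.1, 15.6 and 13.3 CPM in Ctnnb1-siRNA and 9.81, 9.18 and 8.79 CPM in Control-siRNA libraries, at log2 0.73 (SE 0.15, adjusted p = 0.0549). With dDAVP the groups overlapped, at 29.2, 26.3 and 33.5 CPM in Ctnnb1-siRNA and 28.6, 31.3 and 20.3 CPM in Control-siRNA libraries, log2 0.16 (SE 0.14, adjusted p = 0.703). Leaving out 1 library ended the averaged call in 8 of 12 cases: Control-siRNA vehicle replicate 1 (adjusted p = 0.0676), replicate 2 (0.113) or replicate 3 (0.136), Control-siRNA dDAVP replicate 1 (0.0549), Ctnnb1-siRNA vehicle replicate 1 (0.0996) or 2 (0.0998), and Ctnnb1-siRNA dDAVP replicate 1 (0.0711) or 3 (0.0572). The vehicle value was called without Control-siRNA dDAVP replicates 2 (0.0289) or 3 (0.0105) or Ctnnb1-siRNA dDAVP replicates 2 (0.0457) or 3 (0.0349). Ccl20 was not called for the siRNA in the edgeR fit of all libraries. With vehicle it had 6.20, 4.89 and 5.50 CPM in Ctnnb1-siRNA and 3.94, 2.98 and 3.08 CPM in Control-siRNA libraries, which did not overlap (log2 0.72, SE 0.20, adjusted p = 0.175), and it was called there by DESeq2 (adjusted p = 0.0462) and in the fit of only the 2 groups (0.0244). With dDAVP the log2 difference was 0.05 (SE 0.20), and it ran from -0.19 to 0.22 when single libraries were left out. Without Ctnnb1-siRNA dDAVP replicate 3 it was 0.20, and the Cxcl5 difference with dDAVP was 0.06.

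For C3 and Lcn2 the differences between Ctnnb1-siRNA and Control-siRNA vehicle libraries were log2 0.24 (95% interval 0.01 to 0.47) and 0.17 (0.03 to 0.32). Neither was called in the edgeR fit of all libraries or by DESeq2, and both were called in the fit of only the 2 groups (adjusted p = 0.0275 for C3 and 0.0178 for Lcn2). Averaged over treatments Lcn2 had log2 0.18 (SE 0.047, adjusted p = 0.0680), called by edgeR, among the fits that left out a library, only without Control-siRNA dDAVP replicate 2 (adjusted p = 0.0417) or without Ctnnb1-siRNA dDAVP replicate 1 (0.0424). With dDAVP the C3 difference was log2 0.19, and 0.02 without Ctnnb1-siRNA dDAVP replicate 3. For Nfkbia, Tnfaip3 and Icam1 the averaged siRNA differences were log2 0.04 (95% interval -0.04 to 0.11), 0.08 (-0.05 to 0.20) and 0.08 (-0.22 to 0.37). The Nfkbia average joined differences of opposite sign, neither of them called. They were log2 -0.06 with vehicle (95% interval -0.16 to 0.05) and 0.13 with dDAVP (0.03 to 0.24, adjusted p = 0.311), where the groups did not overlap.

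The third question was whether the dDAVP response differed between the siRNAs. In the interaction test edgeR called 0 of the 10 genes and 0% of all genes, with 3 of the 10 and 829 of all genes at an unadjusted p under 0.05, and DESeq2 called 0 of the 10. For Cxcl5 the log2 dDAVP effect was smaller with Ctnnb1 siRNA by 0.57 (interaction -0.57, 95% interval -1.01 to -0.13, edgeR adjusted p = 0.918). Ccl20 gave -0.67 (SE 0.28, adjusted p = 0.918) and Nfkbia 0.19 (SE 0.070, adjusted p = 0.918). For C3 the interaction was -0.05 (95% interval -0.37 to 0.28), and for Lcn2 0.01 (-0.19 to 0.21). Without Ctnnb1-siRNA dDAVP replicate 3 these values were -0.21 for C3 and -0.06 for Lcn2, with no call.

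Promoter sequence was read for genes that moved and for a feedback gene that did not, in the 250 bases before the RefSeq start on GRCm38.p6, on the strand of the gene. Sequences were found for 8 of the 10 genes, not for Cxcl5 and Cxcl16. They made 9 windows, because Tnfaip3 has 2 start sites. The Birc3 window, 7873171 to 7873420 on chromosome 9, overlaps the gene span given above. The motifs searched, on both strands, were the NF-kappaB consensus and TGACG, the core of the cAMP response element. The consensus was GGGRNWYYCC, with R for A or G, N for any base, W for A or T and Y for C or T. Capitals mark the matches, and overlapping matches are merged. Cxcl1 lies at chr5:90890995-90891244 on the plus strand, and Nfkbia at chr12:55492648-55492897, C3 at chr17:57228137-57228386 and Lcn2 at chr2:32387740-32387989 on the minus strand.
Cxcl1: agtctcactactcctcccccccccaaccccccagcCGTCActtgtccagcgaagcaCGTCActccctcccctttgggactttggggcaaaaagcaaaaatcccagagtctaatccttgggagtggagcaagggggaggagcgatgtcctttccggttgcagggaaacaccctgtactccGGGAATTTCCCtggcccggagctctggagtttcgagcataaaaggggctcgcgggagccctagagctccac
Nfkbia: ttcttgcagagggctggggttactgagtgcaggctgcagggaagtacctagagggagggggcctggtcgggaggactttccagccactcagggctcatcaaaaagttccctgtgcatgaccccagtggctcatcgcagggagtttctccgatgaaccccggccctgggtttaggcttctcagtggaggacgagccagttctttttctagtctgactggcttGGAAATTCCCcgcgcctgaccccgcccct
C3: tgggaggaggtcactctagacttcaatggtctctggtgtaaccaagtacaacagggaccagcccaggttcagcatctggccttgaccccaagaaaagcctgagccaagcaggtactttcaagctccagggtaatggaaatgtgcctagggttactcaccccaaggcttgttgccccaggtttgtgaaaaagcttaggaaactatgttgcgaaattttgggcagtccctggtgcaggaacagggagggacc
Lcn2: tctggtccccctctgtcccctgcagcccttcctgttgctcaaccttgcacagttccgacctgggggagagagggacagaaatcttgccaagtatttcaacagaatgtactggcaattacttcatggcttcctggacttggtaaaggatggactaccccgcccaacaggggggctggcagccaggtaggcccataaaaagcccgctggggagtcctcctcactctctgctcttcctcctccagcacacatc

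The Cxcl1 window holds the NF-kappaB consensus on both strands in overlapping stretches at 71 to 61 bases before the start, and TGACG on the minus strand at 2 places. The Nfkbia window holds the consensus once, 29 to 20 bases before the start. Ccl20 and Tnfaip3, whose sequences are not shown, also match the consensus, so that it was found in 4 of the 8 genes. Tnfaip3 matches TGACG as well, and the window of its start site 2 holds neither. These are counts of genes, while the shares below are of windows. The windows of C3, Lcn2, Icam1 and Birc3 hold no exact match to either. Stretches a base away from the consensus, such as tggaaattcc in Icam1 and gggcagtccc in C3, were not counted. Among all 32851 windows of this length in the table, 3.90% hold the consensus and 17.8% hold TGACG. A match describes the letters only, and sites outside these windows were not searched.

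Other genes of the pathway were read from 9 lists, which were chosen with earlier results of these data known. Their counts stand beside 6.86% of all genes called in the averaged dDAVP effect and 1.85% in the averaged siRNA effect. None of the 5 NF-kappaB subunit genes Rela, Relb, Rel, Nfkb1 and Nfkb2 was called in any of the 7 contrasts, and their median averaged dDAVP difference was log2 0.04. Of the 11 genes of IkB proteins and IKK kinases 2 were higher and 0 lower in the averaged dDAVP effect. Nfkbiz, the gene of an atypical nuclear IkB that in mouse macrophages is needed for Lcn2 induction, averaged 116 CPM in Ctnnb1-siRNA dDAVP and 77.9 CPM in Ctnnb1-siRNA vehicle cells, and 110 CPM in Control-siRNA dDAVP and 72.2 CPM in Control-siRNA vehicle cells. It rose by log2 0.58 with Ctnnb1 siRNA (SE 0.057, adjusted p = 2.12e-05) and 0.61 with control siRNA (SE 0.057, adjusted p = 9.43e-06). Ikbkg, the regulatory subunit of the IkB kinase complex, rose by log2 0.18 in the average (adjusted p = 0.0127), a call lost with limma on log2(TPM + 1) (adjusted p = 0.309). No siRNA call was made in that list.

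Of 23 tested feedback and adaptor genes 4 were higher and 1 lower in the averaged dDAVP effect, where 6.86% of all genes were called. Ier3, an early response gene, rose by log2 0.51 (SE 0.092, adjusted p = 0.00317) and Cyld, a deubiquitinase that restrains NF-kappaB, by 0.23 (SE 0.040, adjusted p = 0.00220), both kept without each library in turn, though Cyld was not called with limma on log2(TPM + 1) (adjusted p = 0.148). Zfp36, an mRNA-decay factor, was called higher at log2 0.39 (adjusted p = 0.0375), Irf1 higher at 0.19 and Gadd45b lower at -0.22. Irf1 and Gadd45b are named after their values were seen, and these 3 calls were kept in 4, 3 and 4 of the 12 fits that left out 1 library. In the averaged siRNA effect Plaur, the urokinase receptor gene, was higher (log2 0.47, SE 0.065, adjusted p = 0.00130) and Zfp36 lower (log2 -0.62, SE 0.11, adjusted p = 0.00585). Of 21 tested receptor and adaptor genes 2 were higher in the averaged dDAVP effect, beside 6.86% of all genes called: Il6st, the shared signal transducer of interleukin 6 cytokines (log2 0.18, SE 0.032, adjusted p = 0.00216, but 0.178 with limma on log2(TPM + 1)), and Il6ra (log2 0.68, adjusted p = 0.0267, kept in 4 of 12 fits). For the siRNA Ifngr1 was 1 higher gene (log2 0.18, adjusted p = 0.0465, kept in 2 of 12 fits).

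Among the other ligands and effectors, Ccl28, a mucosal chemokine, was higher with dDAVP (average log2 0.34, SE 0.048, adjusted p = 0.000304) and Ccl5 at 0.957 CPM was higher as well (log2 0.91, SE 0.21, adjusted p = 0.0128), which made 2 higher and 0 lower of 8 tested chemokine genes. With the siRNA Ccl28 was lower (log2 -0.21, adjusted p = 0.0379), a call kept in 1 of 12 fits. Of 10 tested cytokine genes Tnfsf10 was the 1 higher with dDAVP (log2 1.37, SE 0.34, at 0.467 CPM, kept in 7 of 12 fits). With the siRNA 3 were higher: Il34 (log2 1.22, SE 0.21), a ligand of Csf1r, Csf3 (log2 0.40, SE 0.079, not called with limma on log2(TPM + 1), adjusted p = 0.0752), the granulocyte growth factor, and Lif (log2 0.38, adjusted p = 0.0398, kept in 4 of 12 fits). Il34 had few reads and did not pass the alternative filter of at least 1 CPM in 3 libraries. Of 14 tested complement genes 3 were higher and 1 lower in the averaged dDAVP effect, beside 6.86% of all genes called, and 2 of these 4 calls were of genes under 1 CPM. Cfb, the factor B of the alternative pathway that acts with C3, averaged 9.67 CPM in Ctnnb1-siRNA dDAVP and 3.08 CPM in Ctnnb1-siRNA vehicle cells, and 7.06 CPM in Control-siRNA dDAVP and 2.59 CPM in Control-siRNA vehicle cells (average log2 1.55, SE 0.12, adjusted p = 8.30e-07). Clu, a secreted chaperone and complement inhibitor, rose with dDAVP (average log2 0.36, SE 0.054, adjusted p = 0.000479) and with the siRNA (average log2 0.37, SE 0.054, adjusted p = 0.00193, but 0.0677 with limma on log2(TPM + 1)). C1rl was higher (log2 0.83) and Masp1 lower (log2 -1.09), both under 1 CPM and kept in 5 and 8 of 12 fits.

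Of 8 tested acute phase and injury genes 2 were higher and 1 lower in the averaged dDAVP effect. Chil1 rose by log2 2.52 (SE 0.24, at a mean of 1.17 CPM) and Lbp, the lipopolysaccharide-binding protein gene, by 0.58 (SE 0.057, adjusted p = 7.65e-06), while Cp, ceruloplasmin, named after its value was seen, fell (log2 -0.65, SE 0.11, adjusted p = 0.00191). In the averaged siRNA effect Krt20 rose by 0.49 (SE 0.052, adjusted p = 0.000130), Spp1, osteopontin, by 0.64 (SE 0.078), and Cp was lower at log2 -0.47 (adjusted p = 0.0492, kept in 2 of 12 fits). Of the 13 receptor and binding partner genes 5 were in the table and 2 were tested. Lrp2, megalin, which takes up filtered lipocalin, was lower with dDAVP (average log2 -0.23, SE 0.046, adjusted p = 0.00446).

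**Figure D4:**
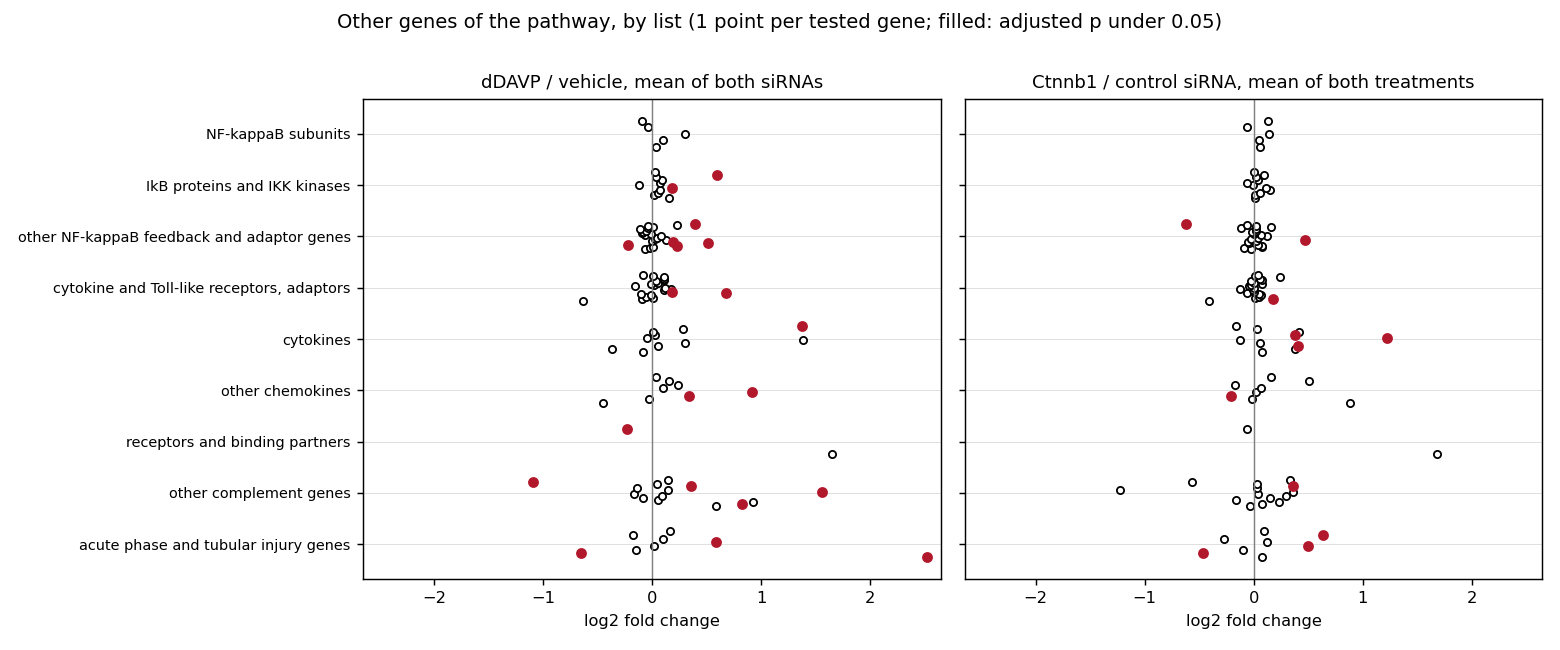
Averaged log2 fold change of each tested gene on the 9 lists, dDAVP over vehicle at the left and Ctnnb1 over control siRNA at the right, filled red where the edgeR adjusted p is under 0.05. The filled points furthest to the right for dDAVP are Chil1 at 2.52 and Cfb at 1.55, and the NF-kappaB subunits have no filled point.

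The genes whose levels followed a called gene most closely were ranked by Pearson's r of log2 CPM over the 12 libraries, among 13229 others with a mean of at least 1 CPM. These values describe libraries that share the same 4 groups. For Cxcl5 they were Ptgs2 (r = 0.969), Txnrd1 (0.955) and Slc39a4 (0.953), and for C3 Atp1b1 (0.989), Plcg2 (0.986) and Akap12 (0.980). For Lcn2 they were Cdcp1 (0.961), Abcg2 (0.947) and Clu (0.944). For Cxcl1 they were Rcan1 (0.942), Oaf (0.929) and Il1rn (0.929), and for Cxcl16 Ano1 (0.929), Bnip3 (0.895) and B2m (0.885).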

How the data were processed

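The deposited table holds unnormalised read counts and TPM values for 25208 genes in 12 libraries of total RNA depleted of ribosomal RNA. The count columns are raw counts per the file headers. The TPM columns were scaled for length by the authors, per the file headers. Per the submitters' processing notes, FastQC, Trimmomatic, HISAT2 and StringTie were used with GRCm38 (mm10), and DESeq2 is named; versions, and whether counting used the strand, are not given in the sources used here. The kit keeps strand, per the labels' protocols. Transcripts carry RefSeq accessions, and all per-sample columns were used.

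The counts went into edgeR 4.0.16 under R 4.3.3. filterByExpr left 16508 genes with 99.968% of reads, TMM scaled the libraries, and all 12 libraries entered a robust quasi-likelihood fit with a coefficient for each of the 4 groups (common biological coefficient of variation 8.26%). The 7 contrasts were dDAVP over vehicle with each siRNA, Ctnnb1 over control siRNA with each treatment, their interaction and both averages. They share libraries, and the averages are not independent of their parts. P-values were adjusted by Benjamini-Hochberg over all tested genes and called under 0.05; adjusted p-values are edgeR's unless another tool is named. The procedure was tested on simulated data in which every gene had the common coefficient of variation. Genes with a wider spread, such as Ccl20 at 16.1% and Birc3 at 51.8%, were outside that test.

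The genes and lists were chosen with earlier results of these data known. All 10 genes are named, and from each list the called genes, or the 4 with the smallest adjusted p where more were called. Alternatives were DESeq2 1.42.0, its size factors in edgeR, no filter, at least 1 CPM in 3 libraries, only the 2 groups compared, a replicate block, limma 3.58.1 on log2(TPM + 1), and each library left out.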

Additional observations from a re-analysis of the deposited data

How the results depend on the processing

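Of the 10 calls of the followed genes, 7 were kept in every alternative run and 9 without each library in turn; of the 52 calls of list genes the numbers were 25 and 31. No called value changed sign. Over all alternatives 11 values of the followed genes lost and 25 gained a call. DESeq2 called 757 genes for dDAVP with control siRNA (467 in edgeR), 728 for dDAVP with Ctnnb1 siRNA (459), 177 for the siRNA with vehicle (71), 237 for the siRNA with dDAVP (44), 565 for the averaged siRNA effect (305) and 1 for the interaction (0), and of the 10 genes 4 and 2 for the siRNA with vehicle and with dDAVP, where edgeR called 0. A fit of only the 2 groups called 266, 225 and 5 genes for dDAVP with Ctnnb1 siRNA and for the siRNA with vehicle and with dDAVP, and 5 of the 10 genes for the siRNA with vehicle: Cxcl5, Cxcl16, Ccl20, C3 and Lcn2, all higher. Limma on log2(TPM + 1) called 210 genes for dDAVP with Ctnnb1 siRNA, 21 for the siRNA with dDAVP and 1 of the 10, Cxcl1, for the averaged siRNA effect. On that scale the median change of all genes was -0.0479 in the averaged dDAVP effect and -0.0658 in the averaged siRNA effect. On TMM-scaled counts these medians were -0.00458 and -0.000711, so rises read smaller on log2(TPM + 1). With no filter Cxcl5 was the 1 call of the 10 for the siRNA with vehicle. The causes were not tested.

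Leaving out each library moved the gene counts to between 242 and 847 for dDAVP with control siRNA, 216 and 503 for dDAVP with Ctnnb1 siRNA, 21 and 180 for the siRNA with vehicle, 5 and 217 for the siRNA with dDAVP, 807 and 1276 for the averaged dDAVP effect and 175 and 611 for the averaged siRNA effect; the counts of 847, 503, 180, 217, 1276 and 611 are those without Ctnnb1-siRNA dDAVP replicate 3. Without Control-siRNA vehicle replicate 3 the first count was 242, without Ctnnb1-siRNA vehicle replicate 2 the second was 216, without Control-siRNA vehicle replicate 2 or Ctnnb1-siRNA vehicle replicate 3 the third was 21, without Control-siRNA dDAVP replicate 1 the fourth was 5, and without Ctnnb1-siRNA vehicle replicate 3 the averaged siRNA count was 175. Of the 10 genes 0 to 1 were called for the siRNA with vehicle and likewise with dDAVP, and 2 to 4 in the averaged siRNA effect. Genes called higher were 67.7% of calls for dDAVP with control siRNA on TMM-scaled counts and 42.4% on log2(TPM + 1), 74.9% and 63.3% with Ctnnb1 siRNA, 47.9% and 25.4% for the siRNA with vehicle, and 45.5% and 19.0% for the siRNA with dDAVP; in the averages they were 63.0% and 33.4% for dDAVP and 50.8% and 16.7% for the siRNA. For the siRNA with dDAVP the share was 55.7% in DESeq2, 0% in the fit of only the 2 groups and without Control-siRNA dDAVP replicate 1 (5 calls each), and 12.5% without Control-siRNA dDAVP replicate 3 (8 calls); for the siRNA with vehicle it was 60.0% in the fit of only the 2 groups.

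The sample titles number the replicates without saying whether the numbers pair the samples. Correlations of deviations from the group means ran from -0.147 to 0.194 for the same number and from -0.276 to 0.342 for different numbers. With the replicate block the counts were 408, 415, 53, 38, 0, 1064 and 263 genes in the order of the contrasts (dDAVP with control and with Ctnnb1 siRNA, siRNA with vehicle and with dDAVP, interaction, averaged dDAVP and averaged siRNA), and the same 10 calls of the followed genes were made. Depth limits Birc3 and Icam1 most, with 0 to 14 and 46 to 114 reads per library.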
